A study of Mus musculus with 16 samples.

Results

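Wild-type male mice given morphine were compared with naive wild-type males in the periaqueductal gray, a midbrain column of neurons around the cerebral aqueduct. The comparison used 8 of the 16 libraries of the series, chosen by their titles: 4 from morphine-treated and 4 from naive wild-type animals. Each library was made from polyA RNA of 4 punches (14 gauge) that were pooled from 2 animals, so the spread between libraries is smaller than that between single animals. The other 8 libraries carry the genotype label knockout, for RGSz1, the product of Rgs20, with 4 morphine-treated and 4 naive. They also entered the fit of all 16 libraries, and so its filter, its scaling and its estimate of the spread. Their own contrast is used below to set the same genes side by side. The labels give no dose, route or duration of morphine, no time of tissue collection and no age or strain. No group carries a vehicle label, so the drug, the way it was given and the handling cannot be told apart.

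The periaqueductal gray is a control point for pain. Its neurons project to the brainstem and from there dampen pain signals in the spinal cord, and opioids acting on the mu receptor release this pathway from local inhibition. The mu receptor couples to inhibitory G proteins, which lower cAMP and open potassium channels, and repeated morphine weakens the response (tolerance). Morphine is also known to activate the hypothalamic, pituitary and adrenal axis in rodents, which raises circulating glucocorticoids. These steroids bind the glucocorticoid receptor, which enters the nucleus and switches on target genes in neurons, glia and vessel cells.

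Totals over genes were 30.8, 28.4, 53.9 and 35.7 mega counts in the morphine libraries, against 26.5, 49.6, 50.2 and 40.9 mega counts in the naive libraries (mean difference -4.6, two-sided exact permutation test, p = 0.6, the smallest possible being 0.0286). The files list 38924 genes, and 18111 passed the filter on low counts and were tested. General neuron markers summed to 11840 to 12930 CPM (counts per mega counts, scaled by TMM) in morphine and 10580 to 12310 CPM in naive libraries. They mark neurons of any brain region, so they do not check the periaqueductal gray label. Cerebellum markers summed to 108 to 148.3 CPM in morphine libraries, against 113.5, 192.7, 162.7 and 107.4 CPM in naive 1 to 4. Wild-type naive 2 stood apart from the other 7 libraries. Its summed level of 27 meningeal fibroblast and matrix markers was 947.5 CPM, against 152.8 to 176.7 CPM in the morphine and 166.2 to 166.5 CPM in the other naive libraries. Its oligodendrocyte markers summed to 8292 CPM, against 10980 to 12590 CPM in morphine and 11290 to 13740 CPM in the other naive libraries. Markers of serotonin neurons, which lie in the adjoining dorsal raphe, summed to 744.8 to 966.4 CPM in the morphine libraries. In naive 1 to 4 they summed to 932.8, 274.4, 331.2 and 656.1 CPM, so naive 2 and 3 were lowest.

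**Figure D1:**
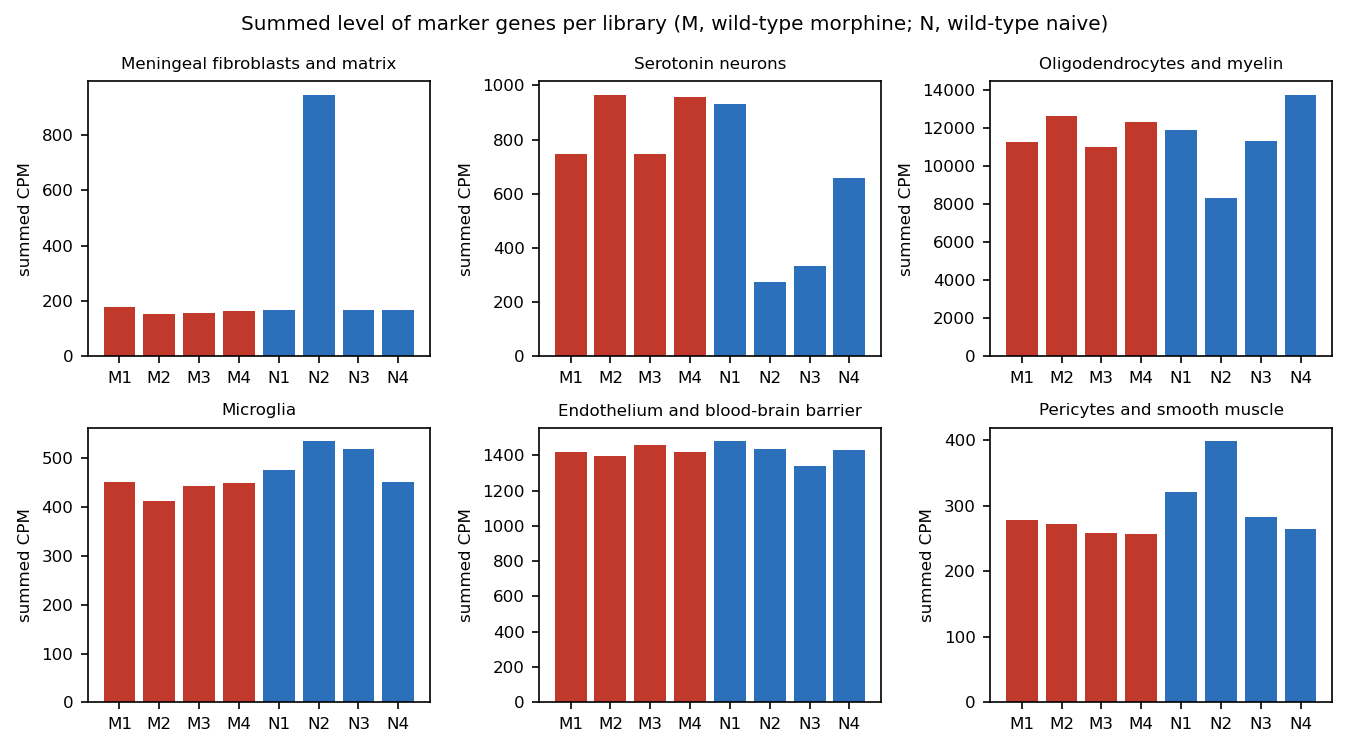
Summed CPM of the tested members of 6 marker lists in each library (y axis starts at 0), with wild-type morphine libraries 1 to 4 (M1 to M4, red) left of wild-type naive libraries 1 to 4 (N1 to N4, blue). Meningeal markers reach 947.5 CPM in naive 2 alone, and serotonin markers are lowest in naive 2 and 3.

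The genes that were higher with morphine included 8 of 17 genes of a list named for the glucocorticoid receptor and its feedback. The receptor gene itself, Nr3c1, was not among the 8. Those that were lower included 5 of 31 microglia markers and 5 of 27 Sonic hedgehog and FGF genes. In the fit of all libraries 424 genes were higher (2.34% of those tested) and 374 lower (2.07%), 798 in all (4.41%; edgeR's quasi-likelihood F test, with p adjusted after Benjamini and Hochberg, below 0.05). That count was 427, 389 and 493 without morphine 1, 2 and 4, and 493, 378 and 1252 without naive 2, 3 and 4. A gene is therefore said below to have risen or fallen only where it passed, with the same sign, in the full fit and in each of the 8 fits that left out 1 wild-type library. This held for 302 genes (1.67%), of which 163 rose (0.900%) and 139 fell (0.767%). These percentages give the scale for every count of list members. Lists and members were chosen with earlier results of these data known, so a count above that scale is not a test of a list. The morphine and naive libraries did not overlap in 720 of the 798 genes (90.2%), against 2001 of all 18111 (11.0%). The 798 were picked by a test on these same libraries, so this share is not separate support for the calls. Most shifts were small: the median fold was 1.19 among the 424 higher genes and 1.27 (naive over morphine) among the 374 lower ones, and 61 genes changed by at least 2-fold (39 higher, 22 lower).

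**Figure D2:**
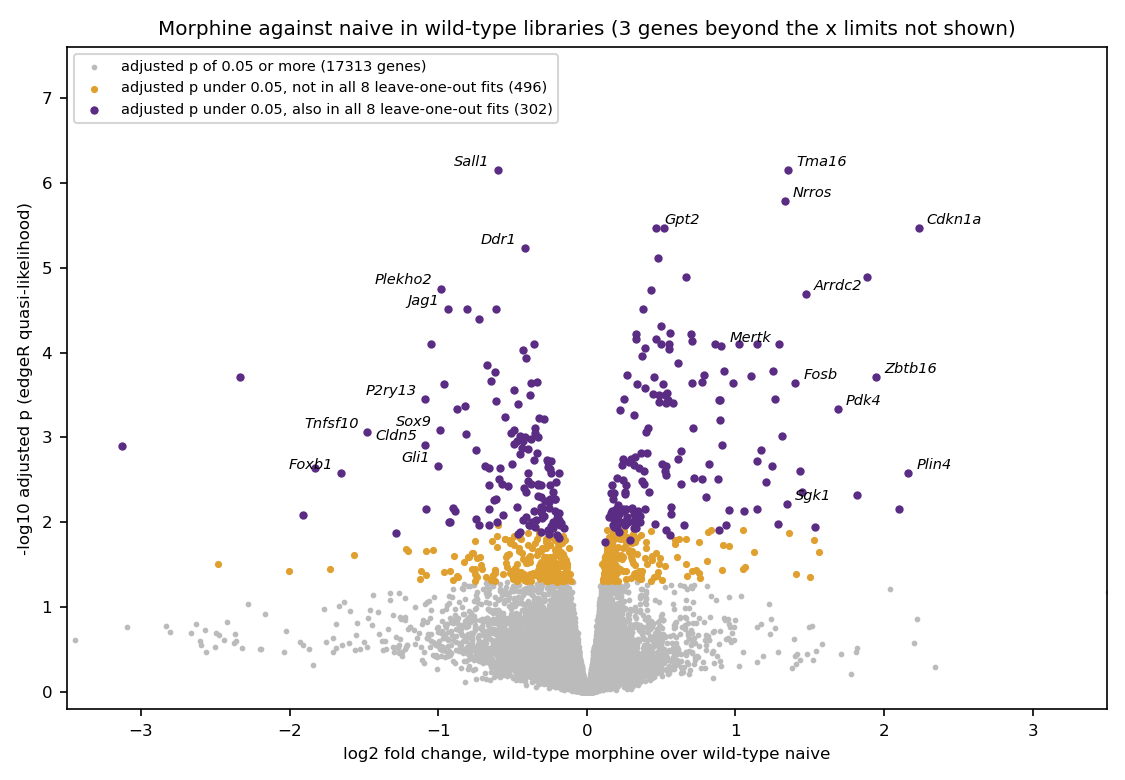
Log2 fold change of wild-type morphine over wild-type naive (x) against -log10 adjusted p (y) for the tested genes, with 3 genes beyond the x limits not shown. Purple points are the 302 genes called in the full fit and in all 8 leave-one-out fits, orange points the 496 called in the full fit but not in all 8.

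Among genes averaging log2 CPM 1 or more, the largest rises included genes that restrain the cell cycle, coat stored fat and spare glucose. Cdkn1a, which encodes the cyclin-dependent kinase inhibitor p21 (chromosome 17, 29090976 to 29100727, plus strand, GRCm38), stood at 34.7, 36.5, 30.7 and 38.9 CPM in the morphine libraries, against 6.42, 7.18, 6.00 and 10.3 CPM in the naive libraries. The groups lay far apart, and the rise was 4.70-fold (log2 2.23 ± 0.16 SE, adjusted p = 3.41e-06). Plin4, a protein of the lipid droplet coat, had 51.5, 49.9, 46.0 and 48.9 CPM in morphine libraries and 17.0, 9.94, 6.62 and 11.5 CPM in naive libraries. The morphine values were close together and the naive ones spread, and the rise was 4.47-fold (2.16 ± 0.33, adjusted p = 0.00262). Plin4 shares 17 exon bases with Hdgfl2 on the opposite strand (82.1 CPM in morphine and 75.9 CPM in naive libraries), and the kit does not mark strand. Pdk4, a mitochondrial kinase that shuts off pyruvate dehydrogenase, had 36.9, 39.8, 39.9 and 53.0 CPM in morphine libraries, against 14.8, 11.8, 12.9 and 13.3 CPM in naive libraries, a 3.22-fold rise (1.69 ± 0.21, adjusted p = 0.000468). The lowest morphine library was above the highest naive library by a wide margin for each of the 3 genes.

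**Figure D3:**
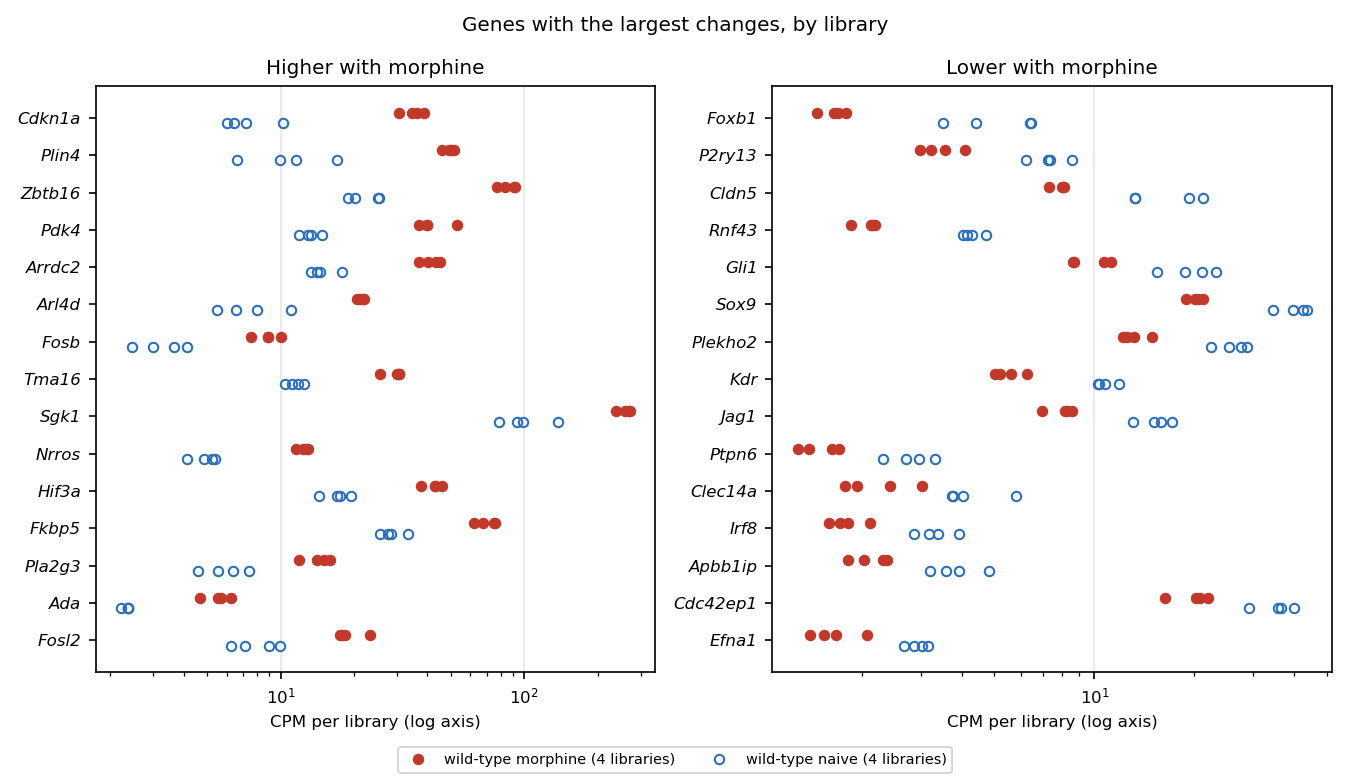
CPM in each library (log axis) of the 15 genes that rose most and the 15 that fell most among those averaging log2 CPM 1 or more that are not predicted genes, with wild-type morphine (filled red) drawn above wild-type naive (open blue) in each row. The 4 morphine libraries lie on 1 side of the 4 naive libraries for each of the 30 genes; Cdkn1a leads the rises and Foxb1 the falls.

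Of 17 tested genes of a list named for the glucocorticoid receptor and its feedback, 8 rose and 0 fell, and 9 met neither. The median of the 17 was 0.28 (log2), against -0.01 over all tested genes, and 0.65 without naive 2. Fkbp5, a co-chaperone that lowers the receptor's affinity for its hormone, stood at 67.6, 76.0, 62.5 and 75.2 CPM in morphine libraries, against 27.5, 33.2, 25.6 and 28.4 CPM in naive libraries, a 2.45-fold rise (adjusted p = 7.86e-05). Tsc22d3, which encodes the anti-inflammatory protein GILZ, had 229.1, 200.7, 197.8 and 231.2 CPM in morphine and 112.2, 102.4, 107.9 and 138.1 CPM in naive libraries, a 1.86-fold rise (adjusted p = 0.000358). Nfkbia, which encodes an inhibitor of NF-kappa-B, rose 1.64-fold, to 29.5 ± 1.90 CPM in morphine libraries, against 17.8 ± 1.94 CPM in naive libraries (SD, n = 4 each). These are negative regulators of hormone or inflammatory signals. The receptor's own gene, Nr3c1, had 97.4, 84.2, 87.1 and 84.0 CPM in morphine and 103.6, 104.6, 108.4 and 91.1 CPM in naive libraries. Its groups overlapped and it did not pass (-0.21 ± 0.07, adjusted p = 0.0898, though 0.0453 by DESeq2). Tsc22d3, Nfkbia and Nr3c1 were chosen after their values were seen.

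The same list held kinases and stress regulators. Sgk1, a kinase that regulates ion channels and transporters, had 260.2, 269.5, 237.5 and 271.4 CPM in morphine libraries, against 78.7, 93.6, 98.5 and 137.6 CPM in naive libraries. The rise was 2.54-fold (1.34 ± 0.23, adjusted p = 0.00605), with naive 4 the highest of its group. Its relative Sgk3 rose 2.15-fold, to 23.2 ± 1.75 CPM in morphine libraries, against 10.8 ± 1.06 CPM in naive libraries. Arrdc2, an arrestin-domain gene, had 45.2, 40.2, 43.3 and 37.0 CPM in morphine and 14.1, 13.3, 14.5 and 17.8 CPM in naive libraries, a 2.78-fold rise (adjusted p = 2.03e-05). Ddit4, which holds back the growth kinase mTORC1, rose 1.72-fold, to 70.7 ± 4.69 CPM in morphine libraries, against 40.9 ± 3.79 CPM in naive libraries. Errfi1, a feedback inhibitor of the EGF receptor, rose 1.62-fold, to 47.9 ± 2.82 CPM in morphine libraries, against 29.4 ± 1.80 CPM in naive libraries. In the libraries labelled knockout, 8 of the 8 genes that rose here were also higher with morphine (adjusted p under 0.05). Of all 302 genes that moved in wild type, 198 passed there with the same sign. Among all tested genes 11.5% passed there in either direction.

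The promoter of Sgk1 is shown because it was the only promoter of a tested gene with a full palindromic glucocorticoid response element, the sequence to which a dimer of the receptor binds. The motif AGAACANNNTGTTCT was searched on both strands of promoter windows from RefSeq (GRCm38.p6), each from 250 bases before to 50 bases after a gene's start. It occurred in 3 of 32851 windows (0.00913%) and, among 12814 tested genes with a window, in Sgk1 alone, in 1 of its 6 windows (chr10:21993640-21993939, plus strand). The capitals mark the match, which begins 189 bases before the start.
Sgk1: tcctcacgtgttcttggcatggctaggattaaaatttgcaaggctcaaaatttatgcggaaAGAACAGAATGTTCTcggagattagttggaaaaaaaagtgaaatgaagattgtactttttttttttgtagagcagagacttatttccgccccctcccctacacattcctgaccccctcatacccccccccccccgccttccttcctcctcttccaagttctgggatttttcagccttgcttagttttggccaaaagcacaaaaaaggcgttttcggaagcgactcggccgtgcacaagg
The motif is exact and the windows are short, so this search does not describe weaker or distant elements.

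A second motif was searched because cAMP signalling, which opioid receptors inhibit, acts through it: the cAMP response element TGACGTCA, which reads the same on both strands. It occurred in 588 of the 32851 windows (1.79%) and in 420 of the 12814 tested genes with a window (3.28%). Among genes that rose it was found in 9 of 125 with a window (7.2%), and among genes that fell in 4 of 89 (4.49%). The 9 were Arl4d, Dio2, Ell2, Errfi1, Lrrc8a, Maff, Ptpn11, Rcan1 and 9330159F19Rik. Windows of 3 of them, whose values are given in this text, are printed with the match in capitals: Errfi1 (chr4:150854820-150855119, plus strand, 1 of 2 windows), Maff (chr15:79347270-79347569, plus strand, 1 of 3 windows) and Arl4d (chr11:101665291-101665590, plus strand, its only window).
Errfi1: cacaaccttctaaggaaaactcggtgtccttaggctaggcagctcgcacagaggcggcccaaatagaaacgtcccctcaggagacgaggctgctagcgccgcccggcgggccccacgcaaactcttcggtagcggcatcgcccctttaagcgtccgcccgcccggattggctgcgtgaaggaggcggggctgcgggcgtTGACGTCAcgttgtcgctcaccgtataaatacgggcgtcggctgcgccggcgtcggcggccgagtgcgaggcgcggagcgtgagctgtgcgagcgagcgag
Maff: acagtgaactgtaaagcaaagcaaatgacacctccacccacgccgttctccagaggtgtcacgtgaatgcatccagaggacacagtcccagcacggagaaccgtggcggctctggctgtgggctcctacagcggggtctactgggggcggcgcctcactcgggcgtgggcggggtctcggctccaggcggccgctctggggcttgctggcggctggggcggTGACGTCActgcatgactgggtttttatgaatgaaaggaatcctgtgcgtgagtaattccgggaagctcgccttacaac
Arl4d: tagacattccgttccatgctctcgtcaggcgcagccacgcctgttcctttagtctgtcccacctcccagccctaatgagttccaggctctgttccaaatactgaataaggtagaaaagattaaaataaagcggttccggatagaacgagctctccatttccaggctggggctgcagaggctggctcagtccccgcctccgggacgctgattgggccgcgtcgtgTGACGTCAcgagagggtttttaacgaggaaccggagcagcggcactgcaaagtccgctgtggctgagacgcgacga
The match begins 51, 29 and 26 bases before the start in Errfi1, Maff and Arl4d. A match is a run of letters and was not tested as a binding site.

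Of 17 tested transcription factor genes that respond to glucocorticoids, 8 rose, 1 fell and 8 did not meet the criterion, with a median of 0.37. Zbtb16, which encodes the zinc finger repressor PLZF (chromosome 9, 48654297 to 48836222, minus strand), had 82.95, 90.7, 76.9 and 91.6 CPM in morphine libraries, against 25.4, 18.9, 20.2 and 25.0 CPM in naive libraries, a 3.85-fold rise (1.94 ± 0.21, adjusted p = 0.000195). Hif3a, an inhibitory member of the hypoxia factor family, had 43.1, 46.1, 42.9 and 37.8 CPM in morphine and 17.1, 19.4, 14.4 and 17.5 CPM in naive libraries, a 2.48-fold rise (adjusted p = 0.000958). The 3 Kruppel-like factor genes that rose did so by less. Klf15, which governs amino acid and fat use, rose 1.58-fold (43.1 ± 1.71 CPM in morphine, 27.1 ± 2.35 CPM in naive libraries, SD, n = 4 each; adjusted p = 1.28e-05). Klf13 rose 1.42-fold (adjusted p = 7.83e-05), and Klf9, which limits growth of neurites and answers to both steroid and thyroid hormone, rose 1.36-fold (adjusted p = 0.000307). Cebpd and Bcl6, both chosen after their values were seen, rose 1.75-fold and 1.33-fold. Cebpd is a leucine zipper factor of inflammatory and fat cell programmes, and it shares 562 exon bases with Spidr. The member that fell was Nr1d1, which encodes the clock repressor REV-ERB alpha, at 55.2, 54.4, 62.1 and 58.3 CPM in morphine libraries, against 74.6, 82.2, 83.8 and 69.1 CPM in naive libraries (-0.43 ± 0.07, adjusted p = 0.00109). Nr1d1 shares 263 exon bases with Thra, which was at 469 CPM in morphine and 480 CPM in naive libraries.

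Of 27 tested genes of fasting, FoxO factors and fat use, 4 rose, 1 fell and 22 did not meet the criterion, with a median of 0.06. Besides Plin4 and Pdk4 these were Pnpla2, the lipase that begins the breakdown of stored fat (37.6 ± 1.45 CPM in morphine, 27.3 ± 2.33 CPM in naive libraries, 1.38-fold, adjusted p = 6.95e-05), and Sesn1, an inhibitor of mTORC1 (1.23-fold, adjusted p = 0.00179). Fbxo32, a ubiquitin ligase of muscle wasting and a known FoxO target, fell: it had 16.1, 17.0, 15.9 and 17.3 CPM in morphine libraries, against 27.4, 22.8, 26.3 and 25.3 CPM in naive libraries (-0.62 ± 0.08, adjusted p = 0.000168). Outside the list, Gpt2, a mitochondrial alanine transaminase, had 90.7, 88.1, 90.2 and 89.9 CPM in morphine and 66.7, 63.2, 64.2 and 66.1 CPM in naive libraries (1.38-fold, adjusted p = 3.41e-06). Of 25 tested genes of glycolysis and glucose transport, 2 rose and 0 fell. They were Slc2a1, the glucose transporter GLUT1 of the blood-brain barrier and glia (156.3 ± 3.86 CPM in morphine, 105.6 ± 4.63 CPM in naive libraries, 1.48-fold, adjusted p = 0.00657), and Ppp1r3g, a glycogen-targeting subunit of protein phosphatase 1 (2.31-fold, adjusted p = 0.0033). Dio2, the astrocyte enzyme that makes active thyroid hormone, had 60.4, 58.7, 52.3 and 62.8 CPM in morphine libraries, against 30.6, 26.1, 27.7 and 34.2 CPM in naive libraries (1.98-fold, adjusted p = 0.00023). Adipor2, the adiponectin receptor that burns fat, rose 1.53-fold (adjusted p = 0.00179). Dio2 and Adipor2 were chosen after their values were seen.

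Of 25 tested p53 targets and growth arrest genes, 3 rose, 0 fell and 22 did not meet the criterion, and their median was 0.00. Next to Cdkn1a they were Gadd45g, a stress gene that slows division (19.4 ± 1.95 CPM in morphine, 11.3 ± 1.60 CPM in naive libraries, 1.71-fold, adjusted p = 0.000224), and Trp53inp1, a cofactor of p53 (1.45-fold, adjusted p = 0.000297). Pmaip1, the p53-induced death gene known as Noxa and chosen after its values were seen, rose 1.94-fold at a low level (3.38 ± 0.42 CPM in morphine, 1.76 ± 0.42 CPM in naive libraries). In the stress lists 1 of 19 cytosolic chaperone genes and 1 of 27 endoplasmic reticulum genes rose: Dnajb1, a partner of HSP70 (1.22-fold), and Herpud1, which helps clear misfolded proteins (1.18-fold). The call of Dnajb1 was lost when only the 8 wild-type libraries were fitted (adjusted p = 0.0669). Of 20 metallothionein and oxidative defence genes 0 met the criterion in either direction.

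Activity-regulated genes were split. Of 33 tested immediate early genes, 4 rose, 1 fell and 28 did not meet the criterion. Fosb, whose stable splice form delta-FosB builds up under repeated stimulation, had 8.86, 7.54, 9.99 and 8.84 CPM in morphine libraries, against 3.00, 3.65, 4.15 and 2.46 CPM in naive libraries (2.64-fold, adjusted p = 0.00023). Gene counts do not tell the splice forms apart. Fosl2, which encodes the related factor FRA2, rose 2.37-fold (19.3 ± 2.64 CPM in morphine, 8.07 ± 1.68 CPM in naive libraries, SD, n = 4 each). Maff, a small MAF protein, rose 1.85-fold, and Homer1, a scaffold of metabotropic glutamate receptors with a short activity-induced form, rose 1.32-fold. Ier5, a regulator of heat shock factor, fell (-0.53 ± 0.10, adjusted p = 0.00374).

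Of the most used rapid genes, Fos, Egr1 and Arc did not pass, and the naive libraries of Fos and Egr1 were spread. Fos had 25.8, 24.8, 27.7 and 28.1 CPM in morphine libraries, against 13.5, 24.5, 25.6 and 10.8 CPM in naive libraries. Naive 2 and 3 lay beside the morphine libraries and naive 1 and 4 below them (0.50 ± 0.26, adjusted p = 0.311). Egr1 had 59.3, 56.3, 65.8 and 66.6 CPM in morphine and 51.3, 84.6, 77.2 and 41.6 CPM in naive libraries, so the same naive libraries were again the higher ones (-0.04 ± 0.19, adjusted p = 0.929). Naive 2 and 3 were also those with the lowest serotonin marker sums, and whether that bears on these genes was not tested. Arc, a gene of synaptic scaling, averaged 16.7 ± 3.31 CPM in morphine and 21.3 ± 1.60 CPM in naive libraries. It did not pass (-0.35 ± 0.11, adjusted p = 0.0757), although DESeq2 and limma-voom gave adjusted p = 0.026 and 0.0433. These 3 genes were chosen after their values were seen.

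Of 27 tested late activity-induced genes 3 rose and 0 fell. Tiparp, an ADP-ribosyltransferase, rose to 24.5 ± 1.46 CPM in morphine libraries, against 17.4 ± 1.37 CPM in naive libraries. Crem, whose short products repress cAMP-driven transcription, had 12.6, 12.7, 12.9 and 12.0 CPM in morphine and 9.73, 10.2, 9.52 and 9.81 CPM in naive libraries (1.28-fold, adjusted p = 0.00231), and it was the only 1 of 36 tested cAMP pathway genes that rose, with 0 that fell. Rgs2, which turns off Gq-coupled signals, had 58.9, 60.0, 57.4 and 64.6 CPM in morphine and 54.2, 47.2, 50.3 and 51.6 CPM in naive libraries (1.19-fold, adjusted p = 0.00982), and it was the only 1 of 18 RGS genes that rose, with 0 that fell. Bdnf, the neurotrophin, averaged 32.0 ± 1.11 CPM in morphine and 27.3 ± 0.80 CPM in naive libraries (adjusted p = 0.0265), but its call was lost without morphine 1, 2 or 4 or naive 1 or 2 (adjusted p up to 0.0949). Among 22 feedback inhibitors of ERK signalling, Errfi1 rose and Spry2, an inhibitor of receptor tyrosine kinases, fell (-0.37 ± 0.06, adjusted p = 0.00103). Of 24 clock genes, 0 rose and 2 fell, Nr1d1 and Bhlhe40, a repressor of the clock (56.6 ± 2.39 CPM in morphine, 66.2 ± 4.07 CPM in naive libraries, adjusted p = 0.00999).

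**Figure D4:**
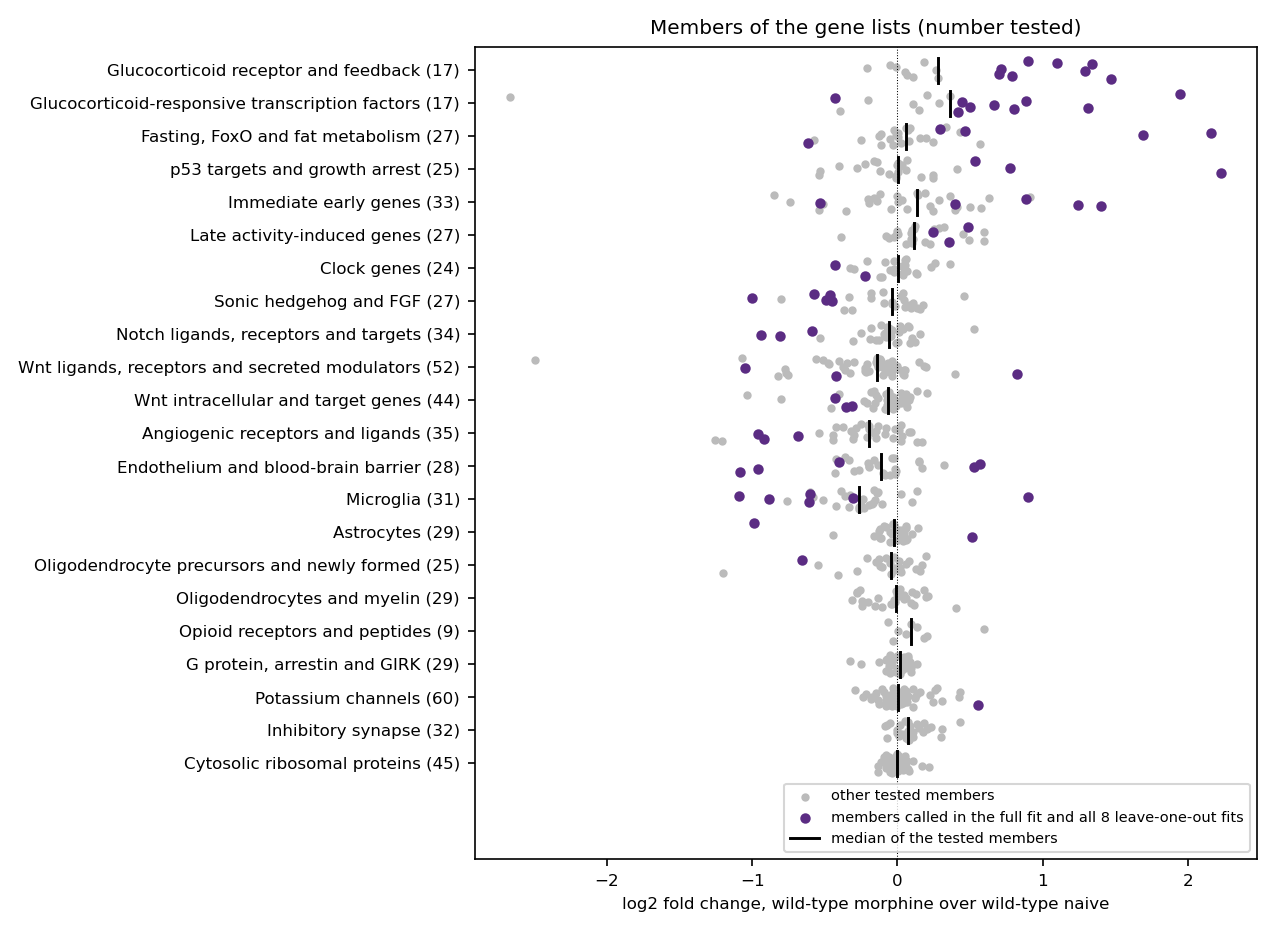
Log2 fold change (wild-type morphine over naive) of each tested member of 22 gene lists, with the number tested in brackets. Purple points were called in the full fit and all 8 leave-one-out fits, and the black line is the list's median; the 2 glucocorticoid lists have medians of 0.28 and 0.37, while the opioid, G protein, potassium channel and ribosomal lists lie close to 0.

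Of 9 tested opioid receptor and peptide genes 0 were called by edgeR, DESeq2 or limma-voom, 1 had an unadjusted p under 0.05, and the median was 0.09. The mu receptor gene Oprm1 (chromosome 10, 6758506 to 7038198, plus strand) had 12.2, 10.3, 13.8 and 10.5 CPM in morphine and 10.8, 12.7, 12.2 and 10.9 CPM in naive libraries. Its log2 fold change was 0.00 ± 0.09, and the 2 ranges overlapped. Oprm1 shares 96 exon bases with Ipcef1 on the other strand, whose difference was 0.31 (adjusted p = 0.0299). The kappa receptor gene Oprk1 averaged 22.9 ± 0.97 CPM in morphine and 19.9 ± 2.34 CPM in naive libraries (adjusted p = 0.309), and the delta receptor gene Oprd1 6.89 ± 0.25 CPM in morphine and 6.14 ± 1.48 CPM in naive libraries (adjusted p = 0.543). Oprl1, the nociceptin receptor gene, differed by 0.06 ± 0.04 on the log2 scale. Penk, the enkephalin precursor gene, had 103.8, 106.2, 96.8 and 101.7 CPM in morphine libraries, against 95.4, 89.9, 102.8 and 83.7 CPM in naive libraries, where naive 3 lay among the morphine values (adjusted p = 0.249). Pdyn, the dynorphin precursor gene, had 6.13, 8.07, 6.35 and 8.90 CPM in morphine and 5.71, 3.20, 4.09 and 6.59 CPM in naive libraries (adjusted p = 0.225). The precursor genes Pomc and Pnoc and the growth factor receptor gene Ogfr gave adjusted p of 0.871, 0.83 and 0.767. A missed threshold does not show that these levels were equal. In the libraries labelled knockout Penk (log2 0.36 ± 0.06, adjusted p = 0.00241) and Pdyn (1.24 ± 0.27, adjusted p = 0.00949) were higher with morphine. The other members of the list did not pass there, and the interaction did not pass for Penk or Pdyn.

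The signalling and excitability lists gave few calls. Of 29 tested genes for G protein subunits, arrestins, receptor kinases and GIRK channels 0 were called by edgeR (3 had an unadjusted p under 0.05, and DESeq2 called 1), and they ranged from -0.33 to 0.14 (log2, median 0.02). Of 12 endocannabinoid genes 0 were called by edgeR, DESeq2 or limma-voom, with 3 at an unadjusted p under 0.05. Of 60 potassium channel genes 1 rose: Kcna5, a voltage-gated channel, at 8.79, 8.5, 8.28 and 8.3 CPM in morphine libraries, against 6.35, 6.17, 5.67 and 4.87 CPM in naive libraries (1.47-fold, adjusted p = 0.0139). Of 48 sodium, calcium, HCN and TRP channel genes 0 rose or fell by the criterion used here. In the glutamate list of 48 genes Homer1 alone rose, and of 32 inhibitory synapse genes 0 did. Among 39 neuropeptide precursor genes, 20 granin and processing genes and 67 neuropeptide and monoamine receptor genes, 0 met the criterion.

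Genes of developmental signalling pathways that adult glia still use were also among those that fell. Of 34 tested Notch genes 3 fell and 0 rose. Jag1, a Notch ligand (chromosome 2, 137081456 to 137116644, minus strand), had 8.18, 6.94, 8.27 and 8.59 CPM in morphine libraries, against 15.1, 17.2, 15.9 and 13.1 CPM in naive libraries (1.91-fold lower, adjusted p = 3.1e-05). Notch1, the receptor, fell to 24.6 ± 3.20 CPM in morphine libraries, against 37.1 ± 2.95 CPM in naive libraries (-0.59 ± 0.10). Heyl, a transcriptional target of Notch, fell to 11.8 ± 1.03 CPM in morphine libraries, against 20.7 ± 1.02 CPM in naive libraries (1.75-fold lower, adjusted p = 3.1e-05). In the full fit 1 of the 34, another receptor gene, was higher and 7 were lower. The median of the 34 was -0.05.

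Of 27 tested Sonic hedgehog and FGF genes, 5 fell and 0 rose, with a median of -0.04. Gli1, the transcription factor that reads out hedgehog signalling, had 8.69, 10.7, 11.2 and 8.64 CPM in morphine libraries, against 18.7, 23.2, 21.1 and 15.5 CPM in naive libraries (2.00-fold lower, adjusted p = 0.00217). Ptch1, a hedgehog receptor and itself a target of the pathway, was 1.38-fold lower. It had 96.4, 88.5, 96.9 and 92.2 CPM in morphine and 125.3, 126.3, 139.5 and 123.5 CPM in naive libraries. The FGF receptor gene Fgfr2 (51.7 ± 1.13 CPM in morphine, 70.5 ± 5.86 CPM in naive libraries) was 1.36-fold lower, and Fgfrl1, a related receptor without a kinase, was lower by a log2 fold change of -0.49 ± 0.08.

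Most genes of the Wnt pathway, which the series names in its title, did not meet the criterion. Of 52 tested ligands, receptors and secreted modulators, 1 rose and 2 fell, with a median of -0.14 (-0.08 without naive 2). Fzd2, a Wnt receptor, had 24.3, 25.7, 30.1 and 29.1 CPM in morphine libraries, against 14.8, 18.4, 16.1 and 12.3 CPM in naive libraries (1.77-fold, adjusted p = 0.00205). Rnf43, a ubiquitin ligase that removes Frizzled receptors, had 2.14, 1.85, 2.12 and 2.19 CPM in morphine and 4.02, 4.29, 4.72 and 4.13 CPM in naive libraries (2.06-fold lower, adjusted p = 7.86e-05). Apcdd1, a membrane-bound Wnt inhibitor, fell 1.34-fold (adjusted p = 0.00396). In the full fit 2 of the 52 were higher and 4 lower, with receptor genes on both sides. Of the 52, 11 had a positive log2 fold change. Of 44 intracellular and target genes 0 rose and 3 fell: Bcl9l, a beta-catenin coactivator (-0.35 ± 0.05), Nkd1, a feedback inhibitor (-0.43 ± 0.09), and the cell cycle gene Ccnd1 (-0.31 ± 0.07). The call of Ccnd1 was lost when only the 8 wild-type libraries were fitted (adjusted p = 0.0912), and it shares 818 exon bases with LTO1, at 18.6 CPM in morphine and 15.9 CPM in naive libraries. Of 43 BMP and TGF-beta genes 0 rose or fell by the criterion used here.

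The genes of 3 transcription factors of glia and neural stem cells named here fell. In bulk tissue, fewer cells of a type and less RNA per cell cannot be told apart. Sox9, an astrocyte factor, had 21.2, 18.9, 20.6 and 20.05 CPM in morphine libraries, against 39.5, 43.5, 42.6 and 34.4 CPM in naive libraries (1.98-fold lower, adjusted p = 0.000819). Sox2 fell to 25.0 ± 2.37 CPM in morphine libraries, against 41.2 ± 3.53 CPM in naive libraries (1.65-fold lower), and it was chosen after its values were seen. Sox10, a factor of the oligodendrocyte lineage, had 38.02, 39.8, 43.7 and 43.2 CPM in morphine and 70.4, 52.3, 68.4 and 69.1 CPM in naive libraries (1.57-fold lower, adjusted p = 0.00231). Of 29 astrocyte markers only Sox9 fell and F3, the tissue factor gene, rose (1.43-fold), with a median of -0.02 and sums of 11270 to 12030 CPM in morphine and 11410 to 12260 CPM in naive libraries. Of 25 markers of oligodendrocyte precursors and newly formed cells, Sox10 alone fell. Of 29 mature oligodendrocyte and myelin markers 0 were called by edgeR or DESeq2, with 6 at an unadjusted p under 0.05 (median -0.01). With 1 library left out that median ran from -0.10 without naive 2, when 4 were lower, to 0.07 without naive 4, when 1 was higher.

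Vessel genes moved in both directions. Of 28 tested endothelial and blood-brain barrier markers, 3 fell and 2 rose, with a median of -0.11 and sums of 1395 to 1457 CPM in morphine and 1341 to 1480 CPM in naive libraries. Cldn5, the main tight junction claudin of brain endothelium (chromosome 16, 18776847 to 18778262, plus strand), had 8.01, 8.04, 8.08 and 7.31 CPM in morphine libraries, against 21.3, 19.3, 13.2 and 13.2 CPM in naive libraries (2.12-fold lower, adjusted p = 0.00121). Kdr, the main receptor for vascular endothelial growth factor, had 5.19, 5.62, 6.27 and 5.03 CPM in morphine and 11.8, 10.8, 10.3 and 10.3 CPM in naive libraries (1.94-fold lower, adjusted p = 0.000235). Slc40a1, the iron exporter ferroportin, fell 1.32-fold. The members that rose were transporters of the barrier, Slc2a1 and Mfsd2a, a lipid carrier that also keeps transcytosis low (50.9 ± 2.60 CPM in morphine, 35.4 ± 3.94 CPM in naive libraries, 1.44-fold, adjusted p = 0.00249). Of the 28, 6 had a positive log2 fold change, or 10 without naive 2. Most endothelial markers were thus slightly lower, while those that met the criterion went both ways.

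Of 35 angiogenic receptors and ligands 3 fell and 0 rose (median -0.20), namely Kdr, Clec14a, an endothelial surface lectin (1.89-fold lower), and Ets1, an endothelial transcription factor (1.61-fold lower). Pdgfrb, the PDGF receptor of pericytes, had 20.4, 18.4, 19.0 and 20.4 CPM in morphine libraries, against 33.6, 36.0, 31.8 and 28.3 CPM in naive libraries (1.66-fold lower, adjusted p = 4.05e-05). It was the only 1 of 18 pericyte and smooth muscle markers that fell, and the median of the 18 was -0.42, or -0.07 without naive 2. Efna1, an ephrin induced by inflammatory signals in endothelium, fell 1.76-fold.

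Of 31 tested microglia markers, 5 fell, 1 rose and 25 did not meet the criterion, with a median of -0.26 (-0.18 without naive 2). The markers summed to 450.3, 413.1, 443.5 and 448.3 CPM in morphine libraries, against 476.1, 534.7, 517.5 and 450.4 CPM in naive libraries. Sall1, a transcription factor that keeps microglia in their resting identity, had 20.2, 19.2, 20.7 and 19.7 CPM in morphine and 31.7, 28.1, 31.6 and 29.8 CPM in naive libraries (1.51-fold lower, adjusted p = 7.09e-07). Cx3cr1, the fractalkine receptor through which neurons restrain microglia, had 23.1, 20.02, 20.1 and 19.2 CPM in morphine and 30.2, 32.0, 33.9 and 29.3 CPM in naive libraries (1.53-fold lower, adjusted p = 3.1e-05). P2ry13, a purine receptor of ramified microglia, had 4.09, 2.99, 3.55 and 3.21 CPM in morphine and 6.23, 7.24, 8.57 and 7.35 CPM in naive libraries (2.13-fold lower, adjusted p = 0.000353). Irf8, a lineage factor, was 1.85-fold lower, and Laptm5, a lysosomal protein, 1.23-fold lower, although Laptm5 had adjusted p = 0.05 when only the 8 wild-type libraries were fitted. The member that rose was Mertk, a receptor for the uptake of dying cells that astrocytes share, at 45.7, 44.7, 44.5 and 45.9 CPM in morphine and 26.6, 25.3, 21.6 and 23.5 CPM in naive libraries (1.87-fold, adjusted p = 8.39e-05).

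Genes of the same cells outside the list also went both ways. Nrros, which anchors latent TGF-beta on microglia, had 11.5, 12.8, 12.9 and 12.3 CPM in morphine libraries, against 4.13, 5.24, 4.86 and 5.39 CPM in naive libraries (2.52-fold, adjusted p = 1.66e-06). Tlr7, a sensor of single-stranded RNA, rose 1.90-fold (3.99 ± 0.37 CPM in morphine, 2.11 ± 0.16 CPM in naive libraries). Ptpn6, the phosphatase SHP-1 of blood and microglia cells, fell 1.90-fold, Apbb1ip, an integrin adaptor, 1.83-fold, and P2rx7, an ATP-gated channel chosen after its values were seen, 1.23-fold. Tnfsf10, the death ligand TRAIL, had 1.07, 1.39, 1.13 and 0.881 CPM in morphine and 2.48, 4.08, 2.73 and 3.03 CPM in naive libraries (2.79-fold lower, adjusted p = 0.000863). Tlr7 and Tnfsf10 were the only 2 of 34 cytokine, chemokine and innate receptor genes that moved. Of 28 interferon-induced genes 0 were called by edgeR (10 had an unadjusted p under 0.05, and DESeq2 called 1), although 28 of 28 were lower (median -0.44). Their sums were 189.3 to 199.7 CPM in morphine libraries, against 201.2, 300.1, 203.1 and 200.3 CPM in naive 1 to 4. Without naive 2 the median was -0.05 and 10 of 28 were positive. The 25 MHC and complement genes also had 0 called (5 at an unadjusted p under 0.05, 1 by DESeq2), a median of -0.26 and, without naive 2, -0.09. Naive 2 was also the library with the highest meningeal marker sum (947.5 CPM), whose part in these lists was not tested.

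Several of the strongest changes belonged to no list. Tma16, a factor bound to early ribosomal subunits, had 30.2, 30.6, 25.7 and 30.6 CPM in morphine libraries, against 11.8, 10.4, 11.2 and 12.4 CPM in naive libraries (2.56-fold, adjusted p = 7.09e-07). Arl4d, a small GTPase of the ARF family, had 20.9, 22.1, 21.8 and 20.6 CPM in morphine and 5.48, 6.56, 7.98 and 11.0 CPM in naive libraries (2.73-fold, adjusted p = 0.00445). Ada, adenosine deaminase, which clears adenosine, rose to 5.53 ± 0.65 CPM in morphine libraries, against 2.33 ± 0.08 CPM in naive libraries (2.39-fold). Pla2g3, a secreted phospholipase, rose 2.40-fold, and it shares 401 exon bases with Inpp5j, whose difference was 0.27 (log2, adjusted p = 0.312). Smaller but tight rises were those of Phactr3, a phosphatase regulator (1.39-fold, adjusted p = 7.77e-06), Fam214a (1.43-fold, adjusted p = 3.41e-06) and Znfx1, a helicase of RNA sensing (1.35-fold, adjusted p = 1.85e-05). Znfx1 shares 82 exon bases with its neighbour Zfas1, whose difference was 0.33 (adjusted p = 0.0116).

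Among the falls, Foxb1, a forkhead factor of developing midbrain and hypothalamus (chromosome 9, 69757710 to 69760940, minus strand), had 1.69, 1.46, 1.78 and 1.65 CPM in morphine libraries, against 4.39, 6.43, 6.40 and 3.49 CPM in naive libraries (3.15-fold lower, adjusted p = 0.00262). Naive 2 and 3 were the higher pair. Foxb1 shares 418 exon bases with B230323A14Rik on the other strand (4.63 CPM in morphine, 6.51 CPM in naive libraries). It was the only 1 of 48 midbrain transcription factors that fell, and 0 rose. Plekho2, a signalling adaptor, had 13.2, 12.2, 14.9 and 12.5 CPM in morphine and 22.5, 27.5, 28.8 and 25.4 CPM in naive libraries (1.97-fold lower, adjusted p = 1.76e-05). Cdc42ep1, an effector of the GTPase CDC42, fell 1.77-fold. Ddr1, a collagen receptor of glia, and Mtss1l, an actin and membrane regulator, fell by less but tightly, 1.34-fold (95.3 ± 3.36 CPM in morphine, 127.5 ± 3.89 CPM in naive libraries, adjusted p = 5.88e-06) and 1.28-fold (adjusted p = 7.86e-05).

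Neuron classes near the punch varied between libraries and gave no call by edgeR in wild type. Of 12 tested serotonin markers 12 were higher with morphine (median 0.39), and 0 were called by edgeR or DESeq2 or had an unadjusted p under 0.05. Tph2, the brain enzyme that starts serotonin synthesis, had 202.5, 270.8, 201.5 and 263.4 CPM in morphine libraries, against 262.4, 44.4, 62.5 and 175.4 CPM in naive libraries. Naive 1 lay within the morphine range, and naive 2 and 3 were low. Slc6a4, the serotonin transporter, followed the same order, at 149.2 to 212.2 CPM in morphine and 200.6, 37.5, 52.4 and 139.8 CPM in naive 1 to 4. In the libraries labelled knockout both genes passed as higher with morphine. Tph2 was at 2.60 ± 0.68 there (log2, adjusted p = 0.0287) and Slc6a4 at 2.51 ± 0.66 (adjusted p = 0.029). Whether this bears on the other genes set side by side was not tested. Of 10 dopamine, 4 noradrenaline and 9 cholinergic and motor markers edgeR called 0, with 1 cholinergic marker at an unadjusted p under 0.05, and DESeq2 called 1 cholinergic marker. Of 45 cytosolic ribosomal protein genes 0 were called by edgeR (3 at an unadjusted p under 0.05, 1 by DESeq2), and they ranged from -0.13 to 0.22. By the same criterion 0 of 43 respiratory chain genes and 0 of 33 sterol and fatty acid synthesis genes rose or fell.

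The libraries labelled knockout were not part of the wild-type contrast, and they share no library with it. Rgs20 was at 11.4 to 13.0 CPM in morphine and 11.9 to 14.0 CPM in naive libraries labelled knockout, and at 11.9 to 14.4 CPM in morphine and 11.6 to 13.4 CPM in naive wild-type libraries. The gene-level counts thus do not separate the genotype labels, and the label is used as given. In the libraries labelled knockout, 2082 genes (11.5%) passed between morphine and naive. Of the 302 genes that moved in wild type, 284 had the same sign there and 198 also passed in that direction. The 384 genes called in both genotypes with the same sign were 48.1% of the wild-type and 18.4% of the knockout calls, and 1 gene passed in opposite directions. The 302 were picked for passing in wild type. Their median log2 fold change was 0.46 in wild type and 0.25 in the libraries labelled knockout for the genes that rose. For the genes that fell it was -0.41 in wild type and -0.34 in the libraries labelled knockout.

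Side by side, Cdkn1a was at 2.23 ± 0.16 in wild type and 1.98 ± 0.16 in the libraries labelled knockout (log2, SE). Zbtb16 was at 1.94 ± 0.21 in wild type and 1.00 ± 0.21 in the libraries labelled knockout, and Fosb at 1.401 ± 0.18 in wild type and 1.54 ± 0.19 in the libraries labelled knockout. Sall1 was at -0.60 ± 0.04 in wild type and -0.65 ± 0.05 in the libraries labelled knockout. Adipor2 was at 0.61 ± 0.09 in wild type and -0.00 ± 0.09 in the libraries labelled knockout. The difference between the genotypes did not pass for this gene (interaction, adjusted p = 0.161). Over all genes 0 interactions passed by edgeR, with 2200 at an unadjusted p under 0.05, and DESeq2 called 107 and limma-voom 0. A change that passes in 1 genotype alone is therefore not shown to differ between them.

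**Figure D5:**
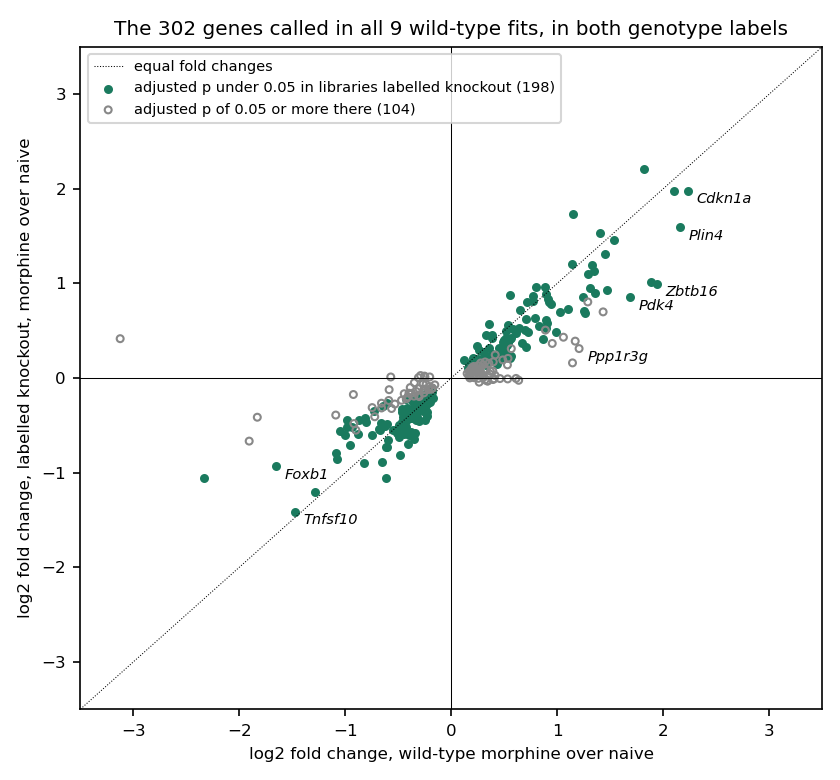
Log2 fold change of morphine over naive in wild-type libraries (x) and in libraries labelled knockout (y) for the 302 genes called in all 9 wild-type fits. Filled points (198) also have an adjusted p under 0.05 in the libraries labelled knockout, and 284 of 302 have the same sign in both; the dotted line marks equal fold changes.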

How the data were processed

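The deposited values are whole-number read counts per gene, made by the authors with HTSeq on mm10, as the submitters' processing notes record; limma is also listed there. Libraries were made with the TruSeq v2 kit, per the labels' protocols; which aligner, annotation and strand option were used is not stated in the labels. The 5 HTSeq tally rows held 38.2 to 40.0% of the wild-type libraries' reads and were left out, and 37 mitochondrial genes stood at 0. Replicate numbers did not pair the samples.

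Genes were filtered with filterByExpr (minimum count 10), scaled by TMM and tested by edgeR 4.0.16 (R 4.3.3, quasi-likelihood, robust) in 1 fit of 16 libraries with a coefficient per group, and p was adjusted by Benjamini-Hochberg. SE is the absolute log2 fold change over the root of F. The fit was checked on simulated data. Positions came from GENCODE M21 on GRCm38, where 37607 of 38924 identifiers matched; promoters came from RefSeq. Alternatives were DESeq2 1.42.0 (size factors; Wald test), limma-voom 3.58.1, 2 other filters, the compared groups alone, a replicate block, and leaving out each library.

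Named by size or p were the 15 largest and the 8 smallest p each way. These came from calls held in all 9 fits, averaging log2 CPM 1 or more, that are not predicted genes. Also named were the 5 tested members with the smallest p of each described list, whether called or not and at any level. All opioid genes were named too. The text takes a part, and some genes were chosen after their values were seen. Members and lists were chosen with earlier results of these data known. Exons of 18 named genes overlap another tested gene, and such reads cannot be assigned by strand. The labels call the libraries biological replicates.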

Additional observations from a re-analysis of the deposited data

Results flagged for a closer look

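In 11 cases 1 library lay apart from the other 3 of its group by Dixon's test. Chance flags about 1 in 20 groups and 232 groups were tested, so the count of 11 is no more than chance would give in independent groups. Genes can move together in 1 library, so the count does not tell which flags are chance. Several fell in wild-type naive 2, whose meningeal marker sum was 947.5 CPM. Wild-type naive 2 was high for Col1a1 (24.7 CPM), Col1a2 (61.6 CPM) and Bst2 (5.24 CPM), where the other naive libraries held 5.93 to 7.10, 9.05 to 10.2 and 1.42 to 1.62 CPM, and it was low for Sox10 (52.3 CPM) and Ada (2.21 CPM). Wild-type naive 1 was low for Nkd1 (14.6 CPM). Wild-type morphine 3 was high for Slc6a2, the noradrenaline transporter gene (3.08 CPM, against 0.0711 to 0.114 CPM in the other morphine libraries), and low for F3 (74.6 CPM) and Tma16 (25.7 CPM). Wild-type morphine 2 was high for Sgk3 (25.8 CPM), and wild-type morphine 4 was low for Cldn5 (7.31 CPM). The calls of Sox10, Ada, Nkd1, F3, Tma16, Sgk3 and Cldn5 held without the library concerned. No cause was tested for any of the 11 flags.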

How the results depend on the processing

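The count of 798 called genes was 801 with DESeq2's size factors, 659 with no filter, 824 with a stricter filter and 861 with limma-voom. It was 1242 with DESeq2's Wald test, 410 when only the 8 wild-type libraries were fitted, and 378 to 1252 when 1 library was left out; the cause was not tested. The 302 genes held in 302 (size factors, no filter, limma-voom), 294 (stricter filter), 298 (Wald test) and 279 (8 libraries) cases. With the replicate block the count was 512 (292 higher, 220 lower), and 302 of the 302 passed. The replicate numbers did not pair the samples: the correlation of same-numbered libraries' deviations was -0.16, -0.149, 0.044 and -0.019, and not every library correlated best with its own number. The knockout count of 2082 was 1037 to 2260 with 1 library left out. The interaction count of 0 was 1 with no filter, 107 with the Wald test and 0 to 56 with 1 library left out. The difference in total count was -10.2 to -1.67 mega counts with 1 library left out. No called gene named in the text changed sign under these alternatives. Medians of lists with 0 calls did: that of the mature oligodendrocyte markers (-0.01) was 0.07 without naive 4, and that of the 4 noradrenaline markers (1.59) was -0.23 without morphine 3. Rare genes limit the comparison: genes under the filter were not tested.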
